A study of Mus musculus with 22 samples.

Results

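The proteasome genes of the mouse spinal cord were taken as all genes in the table whose symbol begins with Psma, Psmb, Psmc, Psmd, Psme, Psmf or Psmg followed by a digit. There were 49 such genes of 17306, and all 49 passed the filter on low values. Of these, 47 encode subunits, activators, an inhibitor or assembly chaperones of the proteasome. The other two, Psmc3ip and Psme3ip1, carry the name only: the first is a meiotic recombination factor and the second a protein that binds the activator Psme3. RNA had been sequenced from lumbar spinal cord (dorsal horn quadrants on the side of the injected knee) of 22 C57BL6J wildtype mice aged 12 to 14 weeks at collection. All mice, vehicle mice included, had joint pain induced by 1 mg of sodium iodoacetate (MIA) in the knee, a blocker of glycolysis that kills cartilage cells, so no uninjured mice are among the groups. Early SAFit2 (n = 5) and Late SAFit2 (n = 5) mice received SAFit2, which blocks the stress-related co-chaperone FKBP51 selectively, at 100 mg/kg in a slow-release phospholipid gel (VPG), and Early Vehicle (n = 6) and Late Vehicle (n = 6) mice received the gel alone. Early mice were injected on days -3 and 4 relative to MIA and late mice on days 20 and 27. The labels of the samples print the first early day without its sign. They call early and late a batch, so timing and batch cannot be told apart.

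The proteasome is the protease that removes most short-lived and damaged proteins marked with ubiquitin. Its core particle is a barrel of stacked rings, with alpha subunits that gate the entry and beta subunits of which Psmb5, Psmb6 and Psmb7 cut. The regulatory particle holds a ring of ATPases (Psmc genes) that unfolds substrates and a set of non-ATPase subunits (Psmd genes) that bind ubiquitin chains and take them off. Under interferon, cells replace the cutting subunits by Psmb8, Psmb9 and Psmb10 and form the immunoproteasome, which makes peptides for display on MHC class I. In neurons the proteasome is known for its part in synaptic plasticity.

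Between 11352989 and 24433349 reads fell on genes in a library, of which the 49 genes took between 0.381% and 0.495%. Values are log2 CPM, the log2 of reads scaled to the size of each library. Late SAFit2 libraries differed on average from Late Vehicle libraries in measures beyond any proteasome gene, though the ranges overlapped. The neuronal RNA Bc1 took 3.31% to 16.5% of the reads of Late SAFit2 libraries against 1.32% to 7.55% in Late Vehicle libraries, and mitochondrial genes took 1.59% to 2.42% against 0.79% to 2.01%. Early Vehicle libraries reached 11.9% for Bc1 and 2.69% for mitochondrial genes. The slope of a library's log2 CPM on the GC content of its transcripts, relative to the mean of all libraries, was -0.30 ± 0.16 per 10% GC (SD, n = 5) in Late SAFit2 and 0.17 ± 0.33 (SD, n = 6) in Late Vehicle. Markers of neurons and glia were expressed in all 4 groups, with a summed level between 3838 and 5489 CPM for 7 neuron markers. Markers of T cells and B cells were close to 0, with a summed level of at most 5.93 CPM for the 2 of 7 listed genes that are in the table. In bulk tissue, fewer cells of a type and less RNA per cell cannot be told apart.

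By class median, subunits of the core and regulatory particles were expressed above the immunoproteasome genes. Per kilobase of the longest transcript, the median level over all mice was 6.33 log2 CPM per kb for the 7 constitutive beta subunits, 6.27 for the 6 ATPases, 5.99 for the 11 non-ATPase subunits and 5.74 for the 8 alpha subunits. The 3 immunoproteasome genes had a median of 1.27 log2 CPM per kb. The highest of them, Psmb10 at 4.35, lay above the lowest non-ATPase subunit, Psmd11 at 4.21. The highest level of any member was that of the ATPase Psmc5, at 7.88 log2 CPM per kb, followed by the ATPase Psmc1 at 7.48 and the alpha subunit Psma6 at 7.02. Assembly chaperones, which are used to build the particle and then leave it or are degraded, lay lower, between 1.97 (Psmg3) and 4.51 (Psmd10) log2 CPM per kb. The lowest level was that of Psma8, an alpha subunit of male germ cells, which had between 0 and 20 reads in a library.

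Of the inducible cutting subunits, Psmb10 was the closest in level to its constitutive partner. Psmb10 stood at 17.7% to 51.6% of Psmb7 per kilobase over the 22 mice, with a median of 33.7%. Psmb8 stood at 1.54% to 4.93% of Psmb5, and Psmb9 at 0.27% to 1.17% of Psmb6. The ratios are of RNA and say nothing of the assembled particles.

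Promoter sequences for 41 of the 49 genes (45 start sites, RefSeq, GRCm38.p6, with the bases around each start) were searched on both strands for the core of the antioxidant response element, TGACNNNGC, through which the factors NFE2L1 and NFE2L2 are known to drive proteasome genes. It was found at 6 of the 45 start sites (13.3%) against 12.4% of 32851 mouse promoters. The interferon response letters GAAANNGAA were found at 7 (15.6%) against 8.56%, and CCAAT at 15 (33.3%) against 37.4%. The 7 matches to GAAANNGAA were at Psmb3, Psmb4, Psmc2, Psmd4, Psmd9, Psme1 and Psmg4. The antioxidant core was matched at Psmd9, Psmd12 and Psme4, which are not shown, and at Psmb5, Psmb6 and Psmc6. Stretches that end at or before the RefSeq start used are shown for the constitutive cutting subunits Psmb5 and Psmb6 and the ATPase Psmc6. Their Late SAFit2 values are given by mouse below. The matched letters are in capitals.
Psmb5, chr14:54618024-54618052, minus strand: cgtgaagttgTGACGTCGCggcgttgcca
Psmb6, chr11:70525328-70525356, plus strand: cagaggcggactaaagagagTGACGGAGC
Psmc6, chr14:45329587-45329615, plus strand, match on the opposite strand: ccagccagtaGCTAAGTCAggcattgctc
A match is a description of the letters and was not tested as a binding site.

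The main question was whether SAFit2 given late, when joint pain was established, changed proteasome genes relative to vehicle. In limma on all 16765 genes tested, 6 of the 49 genes passed a Benjamini-Hochberg adjusted p under 0.05 with a fold change of 1.2 (12.2%). The share among all genes tested was 12.1% (2021 genes), so the proteasome genes changed about as often as any others. Of the 6, the alpha subunits Psma3 and Psma4, the ATPase Psmc6 and the deubiquitinase Psmd14 were higher (8.16% of 49 against a background of 5.33%), and the lid subunit Psmd3 and the inducible Psmb10 were lower (4.08% against 6.72%). The median log2 fold change was -0.01 over the 49 genes and -0.05 over all genes tested, and 24 of 49 were above 0. Each call rested on the library set. With Late SAFit2 replicate 2, 4 or 5 or Late Vehicle replicate 1, 3, 4 or 5 left out, none of the 49 passed. None passed when only these 11 mice were fitted, while 13 passed without Late Vehicle replicate 6. The shares of all genes in these fits are not given, so these counts have no background to be read against.

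**Figure D1:**
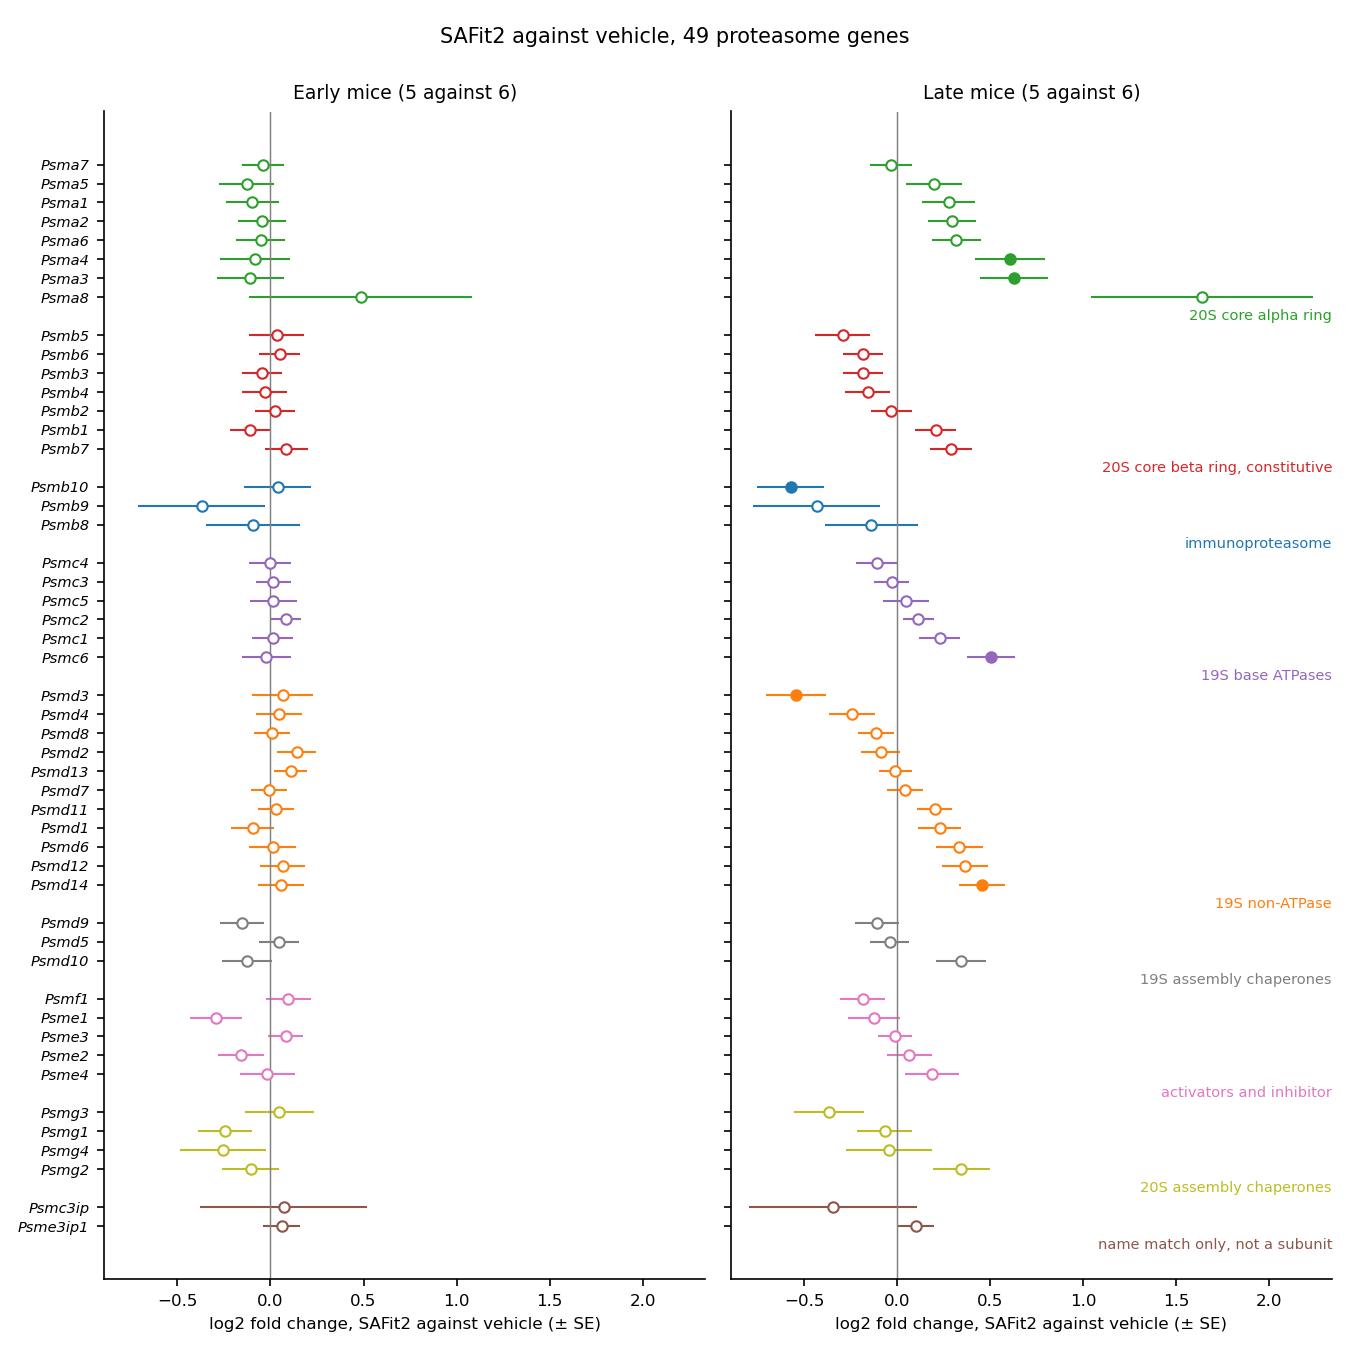
Log2 fold change of each of the 49 genes (points, with SE bars) for SAFit2 against vehicle in early mice on the left and late mice on the right, grouped by class and sorted by the late value, with filled points for genes that passed the test. No point is filled on the left, and 6 are on the right, with points on both sides of 0 in most classes.

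Subunits of the same particle lay on both sides of 0. The 8 alpha subunits had a median late log2 fold change of 0.31, with 7 of 8 above 0 and 2 that passed. The 7 constitutive beta subunits, which form the inner rings of the same core particle, had a median of -0.16, with 5 of 7 below 0 and none that passed. The 6 ATPases had a median of 0.08, which turned to -0.02 when library sizes left out Bc1 and mitochondrial genes, and the 11 non-ATPase subunits 0.04, which turned to -0.01 under quantile normalization and -0.05 with those library sizes. All 3 inducible subunits were below 0 (median -0.43), and 1 of them passed. Activators and the inhibitor Psmf1 ranged from -0.19 (Psmf1) to 0.19 (Psme4), and none of the 5 passed.

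Psmc6 (chr14:45329823-45349074), an ATPase of the base, had the lowest adjusted p of the 49 genes. Its log2 CPM was 6.66, 6.95, 6.87, 6.88 and 7.10 in the 5 Late SAFit2 mice, while Late Vehicle mice ranged from 6.11 to 6.82 with a median of 6.31. The difference was 0.50 ± 0.13 (SE, limma adjusted p = 0.0327, exact permutation p = 0.0108). Late Vehicle replicate 6 was the highest vehicle mouse and lay above 1 of the SAFit2 mice, so the groups overlapped. The early difference was -0.02 ± 0.13.

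Psmd14 (chr2:61711694-61800376), the lid enzyme that cuts ubiquitin chains off a substrate as it enters, was the only member whose late groups did not overlap, which held for 1.71% of all genes tested. Its log2 CPM was 7.04, 6.95, 6.83, 7.03 and 7.11 in Late SAFit2 mice, and in Late Vehicle mice it ranged from 6.34 to 6.78 with a median of 6.53. The difference was 0.45 ± 0.12 (SE, limma adjusted p = 0.0341). The exact permutation p of 0.00433 is the smallest that the splits of 5 and 6 mice can give two-sided. The early values of 6.32 to 6.97 (SAFit2) and 6.07 to 6.79 (vehicle) overlapped, with a difference of 0.06 ± 0.12.

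The alpha subunits Psma3 (chr12:70969283-70995877) and Psma4 (chr9:54950781-54958034), ring subunits without a cutting site, showed the largest differences among the genes that were higher. Psma3 stood at 6.89, 6.78, 6.60, 7.0 and 7.14 log2 CPM in Late SAFit2 mice and between 5.88 and 6.91 (median 6.08) in Late Vehicle mice, a difference of 0.63 ± 0.18 (SE, limma adjusted p = 0.0361, exact permutation p = 0.0281). Psma4 stood at 6.41, 6.46, 6.51, 6.78 and 6.94 against 5.52 to 6.61 (median 5.97), a difference of 0.61 ± 0.19 (SE, limma adjusted p = 0.0425, exact permutation p = 0.0195). For both genes the vehicle mouse that reached into the SAFit2 range was Late Vehicle replicate 6, and for Psma3 also replicate 2. The other end of the ring was Psma7, at -0.03 ± 0.11, and Psma8 at 1.64 ± 0.60 (SE, limma adjusted p = 0.0635), a value that rests on few reads with 3 of 6 Late Vehicle mice at 0.

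Psmd3 (chr11:98682554-98695978), a lid subunit with a structural part, was lower in late SAFit2 mice. Its log2 CPM was 6.50, 6.13, 6.40, 5.85 and 5.75 in Late SAFit2 mice and between 6.16 and 7.02 (median 6.80) in Late Vehicle mice, a difference of -0.54 ± 0.16 (SE, limma adjusted p = 0.0393, exact permutation p = 0.0325). Late Vehicle replicates 2 and 6 lay inside the SAFit2 range. Psmd3 and Psmd14 are lid subunits of the same complex and went in opposite directions.

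**Figure D2:**
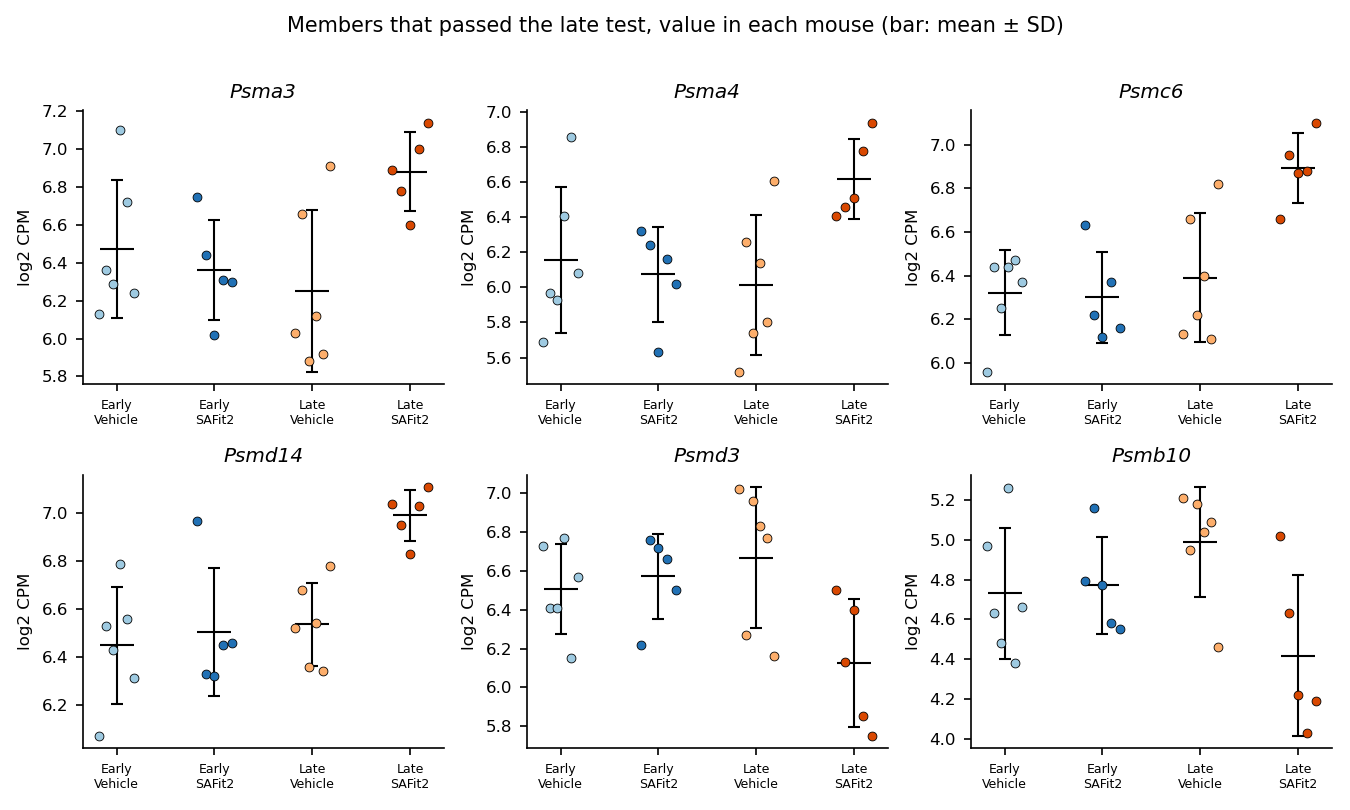
Log2 CPM (vertical axis) of the 6 genes that passed the late test in each mouse of the 4 groups, with mean and SD as bars. Late SAFit2 mice sit above most Late Vehicle mice for Psma3, Psma4, Psmc6 and Psmd14 and below most of them for Psmd3 and Psmb10, and only Psmd14 shows no overlap between these groups.

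The genes that were higher and the genes that were lower differed in base composition, which no selection rule had used. GC content of the longest transcript was 37.0% for Psmc6, 40.8% for Psma3, 43.2% for Psmd14 and 45.0% for Psma4, and 55.4% for Psmd3 and 56.5% for Psmb10, around a median of 49.8% over the 49 genes. Across the 49 genes, which share libraries and are not independent, the late log2 fold change went down with GC content (Pearson's r = -0.67, Spearman's rho = -0.74). By class the GC median was 44.5% for alpha subunits, 51.0% for constitutive beta subunits and 54.1% for inducible subunits. When the trend of each library on GC content and transcript length was removed, r became -0.06 and none of the 49 genes passed in limma, nor did any other gene. An unadjusted p under 0.05 was then found for 14 of the 49 genes (28.6%) and for 15.3% of the 16213 genes in that fit. Psmc6 then stood at -0.03, Psma3 at 0.26, Psmd14 at 0.11, Psma4 at 0.30, Psmd3 at -0.22 and Psmb10 at -0.27. Whether the GC slopes of the libraries produced these differences was not tested, and the correction also takes away any effect of SAFit2 that follows GC content.

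**Figure D3:**
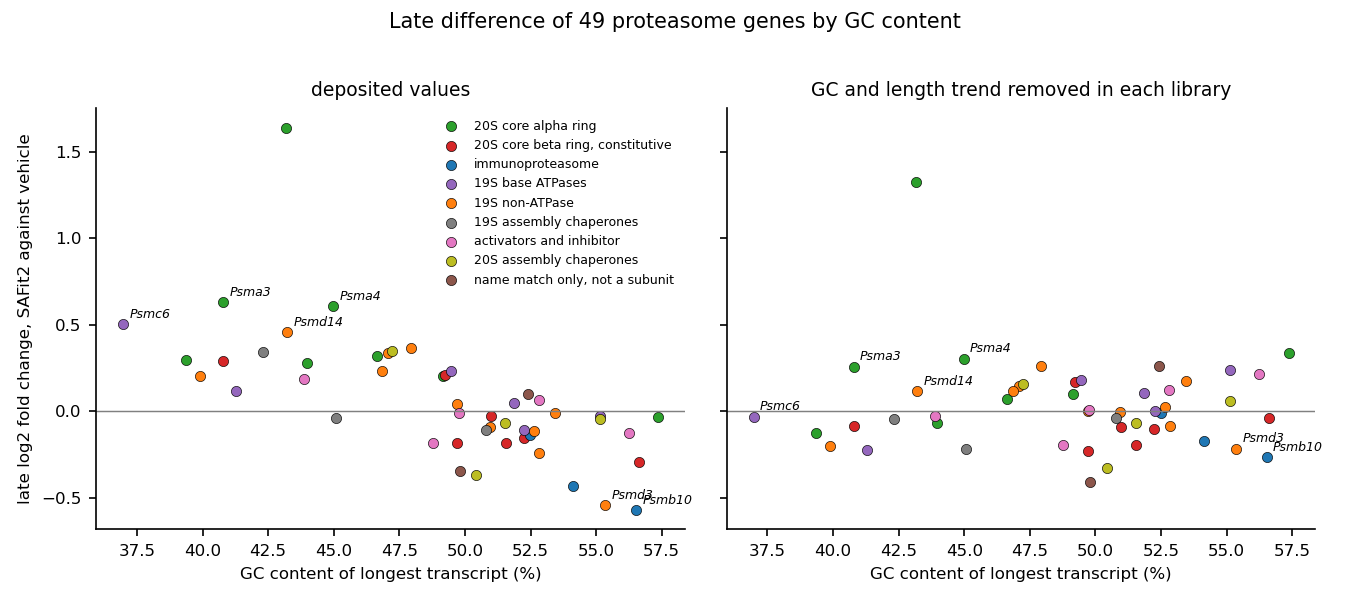
Late log2 fold change (vertical axis) against GC content of the longest transcript in percent (horizontal axis) for the 49 genes, colored by class, from deposited values on the left and with the GC and length trend of each library removed on the right. On the left the points fall from low to high GC content (r = -0.67), and on the right they do not (r = -0.06).

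Psmb10 (chr8:105935728-105938392), the inducible subunit that takes the place of Psmb7, was the only immunoproteasome gene that passed. Its log2 CPM was 5.02, 4.63, 4.22, 4.03 and 4.19 in Late SAFit2 mice and ranged from 4.46 to 5.21 (median 5.07) in Late Vehicle mice, a difference of -0.57 ± 0.18 (SE, limma adjusted p = 0.0438, exact permutation p = 0.0303). The groups overlapped, because Late SAFit2 replicates 1 and 2 were within the vehicle range, whose low end was Late Vehicle replicate 6. Early SAFit2 mice stood at 4.79, 5.16, 4.77, 4.58 and 4.55 and Early Vehicle mice between 4.38 and 5.26 (median 4.64), a difference of 0.04 ± 0.18. Its partner Psmb7, the trypsin-like cutting subunit, was at 7.78, 7.84, 7.69, 7.56 and 7.82 in Late SAFit2 mice against 7.22 to 7.65 (median 7.44) in Late Vehicle mice. That difference of 0.29 ± 0.11 did not pass (SE, limma adjusted p = 0.0792, exact permutation p = 0.0108). The RNA of Psmb10 was 17.7% to 32.1% of that of Psmb7 per kilobase in Late SAFit2 mice and 25.2% to 49.4% in Late Vehicle mice. Psmb7 has a GC content of 40.8%, against 56.5% for Psmb10 and a range of 37.0% to 57.4% over the members.

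Psmb8 (chr17:34198195-34201454) and Psmb9 (chr17:34182030-34187330), which lie beside the peptide transporter genes in the MHC region, were low and variable. Psmb8 stood at 1.69, 1.90, 2.02, 1.77 and 2.93 log2 CPM in Late SAFit2 mice, Late Vehicle mice ranged from 1.89 to 2.66 (median 2.14), and the difference was -0.14 ± 0.25 (SE, limma adjusted p = 0.726). Psmb9 stood at 0.78, -0.51, 0.92, -0.49 and 0.17 against 0.20 to 1.03 (median 0.58), a difference of -0.43 ± 0.34 (SE, limma adjusted p = 0.375). Early SAFit2 mice had 2.12, 2.87, 2.20, 2.23 and 1.64 for Psmb8 and 0.76, 1.22, 0.23, 0.40 and 0.48 for Psmb9. Early Vehicle mice ranged from 1.70 to 2.69 (median 2.36) and from -0.09 to 1.64 (median 1.02), so the groups overlapped for both genes. A library held 33 to 145 reads for Psmb8 and 6 to 58 for Psmb9.

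Their constitutive partners were far above them and did not pass in late mice. Psmb5, the chymotrypsin-like subunit, stood at 6.62, 5.99, 6.06, 5.60 and 6.20 in Late SAFit2 mice against 5.98 to 6.66 (median 6.48) in Late Vehicle mice, a difference of -0.29 ± 0.15 (SE, limma adjusted p = 0.161). Psmb6, the caspase-like subunit, stood at 6.87, 6.45, 6.43, 6.27 and 6.57 against 6.46 to 6.85 (median 6.76), a difference of -0.18 ± 0.11 (SE, limma adjusted p = 0.229). In early mice Psmb5 was at 6.09, 6.36, 6.06, 6.09 and 5.95 (SAFit2) and at 5.85 to 6.33 (vehicle, median 6.04), and the groups overlapped. Early SAFit2 mice had 6.46, 6.73, 6.34, 6.33 and 6.23 for Psmb6 and 7.72, 7.45, 7.04, 7.38 and 7.22 for Psmb7, and overlapped the vehicle ranges of 6.26 to 6.49 and 7.04 to 7.56.

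**Figure D4:**
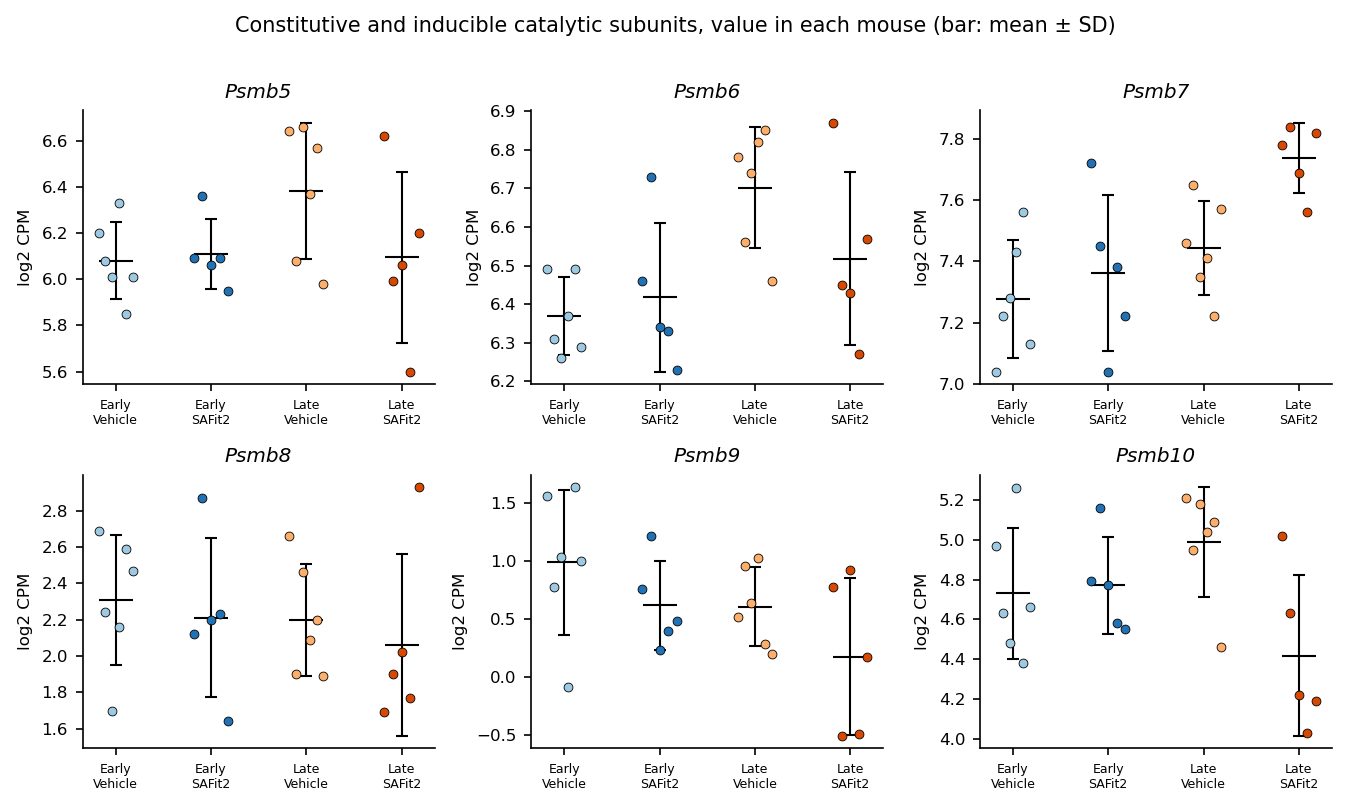
Log2 CPM (vertical axis, a separate range for each gene) of the constitutive cutting subunits Psmb5, Psmb6 and Psmb7 and the inducible Psmb8, Psmb9 and Psmb10 in each mouse of the 4 groups, with mean and SD as bars. Late SAFit2 mice are lower for Psmb10 and higher for Psmb7, with overlap between groups in all 6 genes.

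Genes of the interferon and MHC class I pathway, which usually rise with the immunoproteasome, lay on both sides of 0 in late mice. Of 14 listed genes, 7 were above 0 and 7 below 0, with a median of 0.02. Of the 14, 3 passed as higher, where the share among all genes tested was 5.33%, and 0 passed as lower. Of the listed genes reported here, B2m, the light chain of MHC class I (0.61 ± 0.19), and Gbp2, an interferon-induced GTPase (1.01 ± 0.32), passed in late mice, and both were higher. The transporter genes Tap1 (0.05) and Tap2 (-0.42) did not pass. With the GC trend removed the values were 0.10 for B2m and 0.88 for Gbp2. The summed level of 10 microglia markers, the resident immune cells, was 379 to 452 CPM in Late SAFit2 mice and 398 to 435 CPM in Late Vehicle mice, and its part in these results was not tested.

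Among the assembly chaperones and the 2 genes matched by name only, no gene passed in late mice. The highest value of the base chaperones was that of Psmd10, also known as gankyrin, at 0.34 ± 0.14 (SE, limma adjusted p = 0.0801), and the lowest that of Psmd9, at -0.11 ± 0.12. Of the 4 chaperones that help to form the core particle, Psmg2 was at 0.35 ± 0.15 and Psmg3 at -0.37 ± 0.19, with limma adjusted p of 0.11 and 0.164. Of the ATPases, Psmc4 had the lowest value, -0.11 ± 0.11. Psmc3ip was at -0.34 ± 0.45 and Psme3ip1 at 0.10 ± 0.10, and the value for Psmc3ip, which had 1 read in a Late SAFit2 mouse, ranged from -0.56 to 0.29 when single libraries were left out.

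Outside the symbol rule, a list of proteasome partners and genes of ubiquitin supply and proteasome gene control was also tested. Of its 28 genes tested, 2 passed as higher and 2 as lower in late mice. The shares among all genes tested were 5.33% and 6.72%. Of its genes reported here, Adrm1, Uchl5 and Txnl1 passed. The receptor subunit Adrm1, which binds ubiquitin at the top of the regulatory particle, was lower, with 4.98 to 5.52 in Late SAFit2 mice against 5.16 to 6.21 in Late Vehicle mice (-0.59 ± 0.18). The deubiquitinase Uchl5, which docks on Adrm1, was higher, with 6.77 to 7.15 against 5.97 to 7.03 (0.60 ± 0.18), as was Txnl1, a thioredoxin-like protein bound to the regulatory particle, with 6.93 to 7.59 against 6.35 to 7.30 (0.56 ± 0.16). GC content was 55.4% for Adrm1, 39.2% for Uchl5 and 39.2% for Txnl1, the same order as in the members that passed. With the GC and length trend removed the values were -0.24 for Adrm1, 0.12 for Uchl5 and 0.15 for Txnl1. The proteasome transcription factors Nfe2l1 (-0.29 ± 0.10) and Nfe2l2 (0.38 ± 0.14) did not pass, with limma adjusted p of 0.0605 and 0.058.

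SAFit2 given around the time of MIA left no proteasome gene past the threshold. In limma 0 of 49 genes passed in early mice, where the share among all genes was 0%, and 1 of 49 had an unadjusted p under 0.05, compared with 416 of all 16765 genes. With limma voom on recovered reads 0 passed as well. That gene was the activator Psme1, a subunit of the interferon-induced cap of the core particle, at 4.81, 5.21, 4.74, 5.07 and 5.07 in Early SAFit2 mice and 4.92 to 5.80 (median 5.25) in Early Vehicle mice. The groups overlapped, with a difference of -0.29 ± 0.14 and an exact permutation p of 0.115. The median over the 49 genes was 0.01, and values ranged from -0.37 (Psmb9) to 0.49 (Psma8).

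The early and late effects were also compared with each other. In limma none of the 49 genes passed for the early minus the late effect, where the share among all genes was 0%, and 8 of 49 (16.3%) had an unadjusted p under 0.05 against 24.9% of all genes tested. With limma voom 0 passed as well. The lowest adjusted p was 0.121, for Psma3 (-0.74 ± 0.26) and Psmc6 (-0.53 ± 0.19), and Psmb10 was at 0.61 ± 0.25 (limma adjusted p = 0.146). For the mean of both effects, 8 of 49 genes had an unadjusted p under 0.05 (16.3%) against 13.2% of all genes. Of these, 5 were higher (background 6.03%) and 3 lower (background 7.18%).

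A comparison of late with early mice within each treatment was added after the values had been seen, and here the share of proteasome genes was further from the background. In vehicle mice 7 of 49 genes passed (14.3% against 9.11%), of which 6 were higher in late mice (12.2% against 3.29%) and 1 was lower (2.04% against 5.82%). In SAFit2 mice 14 of 49 passed (28.6% against 20.5%), all higher in late mice (28.6% against 9.2%), with none lower (background 11.3%). The groups did not overlap for 4 genes in vehicle mice (8.16% against 4.92%) and for 12 in SAFit2 mice (24.5% against 14.5%). Early and late mice are different batches by the labels, so none of these differences can be assigned to the timing of injection. The summed markers of microglia did not overlap between the cohorts in either treatment. Those of astrocytes overlapped in vehicle mice only, and those of oligodendrocytes overlapped in both treatments. The summed level of 10 microglia markers was 315 to 375 CPM in Early Vehicle and 398 to 435 CPM in Late Vehicle mice, and 300.2 to 326 and 379 to 452 CPM in Early and Late SAFit2 mice. That of 6 astrocyte markers was 2957 to 3891 CPM in Early SAFit2 and 4802 to 5863 CPM in Late SAFit2 mice, without overlap, and 3355 to 4426 and 4386 to 5295 CPM in Early and Late Vehicle mice. The 6 oligodendrocyte markers summed to 15973 to 32067 CPM in Early Vehicle and 17441 to 21380 CPM in Late Vehicle mice. In Early and Late SAFit2 mice they summed to 14560 to 20722 and 18657 to 23245 CPM. The part of these 3 marker lists in the results was not tested.

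The ATPases of the regulatory particle were the class with the largest share of genes that passed as higher in late mice in both treatments, though other classes had as many or more genes above 0 for their size. In vehicle mice all 6 were above 0 (median 0.28) and 3 passed, and in SAFit2 mice 5 of 6 were above 0 (median 0.37) and 5 passed. The 3 genes that passed in both were the ATPases Psmc2, Psmc3 and Psmc5. Psmc5 ranged from 7.93 to 8.48 in Early Vehicle and from 8.48 to 8.68 in Late Vehicle mice, without overlap by a margin smaller than the rounding, a difference of 0.40 ± 0.12 (SE, limma adjusted p = 0.0366). In SAFit2 mice it was at 8.32, 8.40, 8.0, 8.23 and 7.86 early and at 9.01, 8.72, 8.65, 8.24 and 8.35 late, with overlap (0.43 ± 0.13, limma adjusted p = 0.0228). Psmc3 differed by 0.32 ± 0.09 in vehicle and 0.28 ± 0.10 in SAFit2 mice, and Psmc2 by 0.27 ± 0.08 and 0.30 ± 0.09.

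Other classes moved less evenly between the cohorts. The largest difference in vehicle mice among the genes that passed and were higher was that of Psmd2, a scaffold of the base (0.41 ± 0.10, limma adjusted p = 0.00914), and in SAFit2 mice that of the lid subunit Psmd12 (0.61 ± 0.13, limma adjusted p = 0.00223). The nuclear activator Psme4 was lower in late vehicle mice, with 4.74 to 5.56 (median 4.78) against 5.28 to 5.72 (median 5.47), a difference of -0.49 ± 0.14 (SE, limma adjusted p = 0.0271). Alpha subunits had a median of -0.13 in vehicle mice and 0.46 in SAFit2 mice, while the 3 inducible subunits had -0.11 and -0.35, of which the first turned to 0.03 under quantile normalization.

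These cohort differences depended on the scaling of the libraries. The median of all genes in SAFit2 mice was -0.07 with the deposited scaling, -0.26 with library sizes without Bc1 and mitochondrial genes, and 0.06 after centring on the median gene. In SAFit2 mice 6 members passed as higher and 4 as lower with the former library sizes, where the median of the members was -0.01, and 22 as higher and 0 as lower with the latter. In vehicle mice those library sizes, and likewise quantile normalization, left 1 gene, which was lower. With the GC and length trend removed, 11 genes were higher and 1 lower in vehicle mice, and 7 higher and 2 lower in SAFit2 mice. The shares of all genes that passed under these settings are not given, so these counts cannot be read against a background. The median of the ATPases was above that of all genes under each of these 4 settings. It was 0.13 to 0.35 in vehicle mice and 0.16 to 0.49 in SAFit2 mice. All genes had -0.09 to 0.07 and -0.26 to 0.06. Medians of the constitutive beta subunits and the non-ATPase subunits were likewise above those of all genes under each setting, so this was not particular to the ATPases. The smallest margin was that of the non-ATPase subunits in SAFit2 mice under quantile normalization, 0.0187 against 0.0185.

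**Figure D5:**
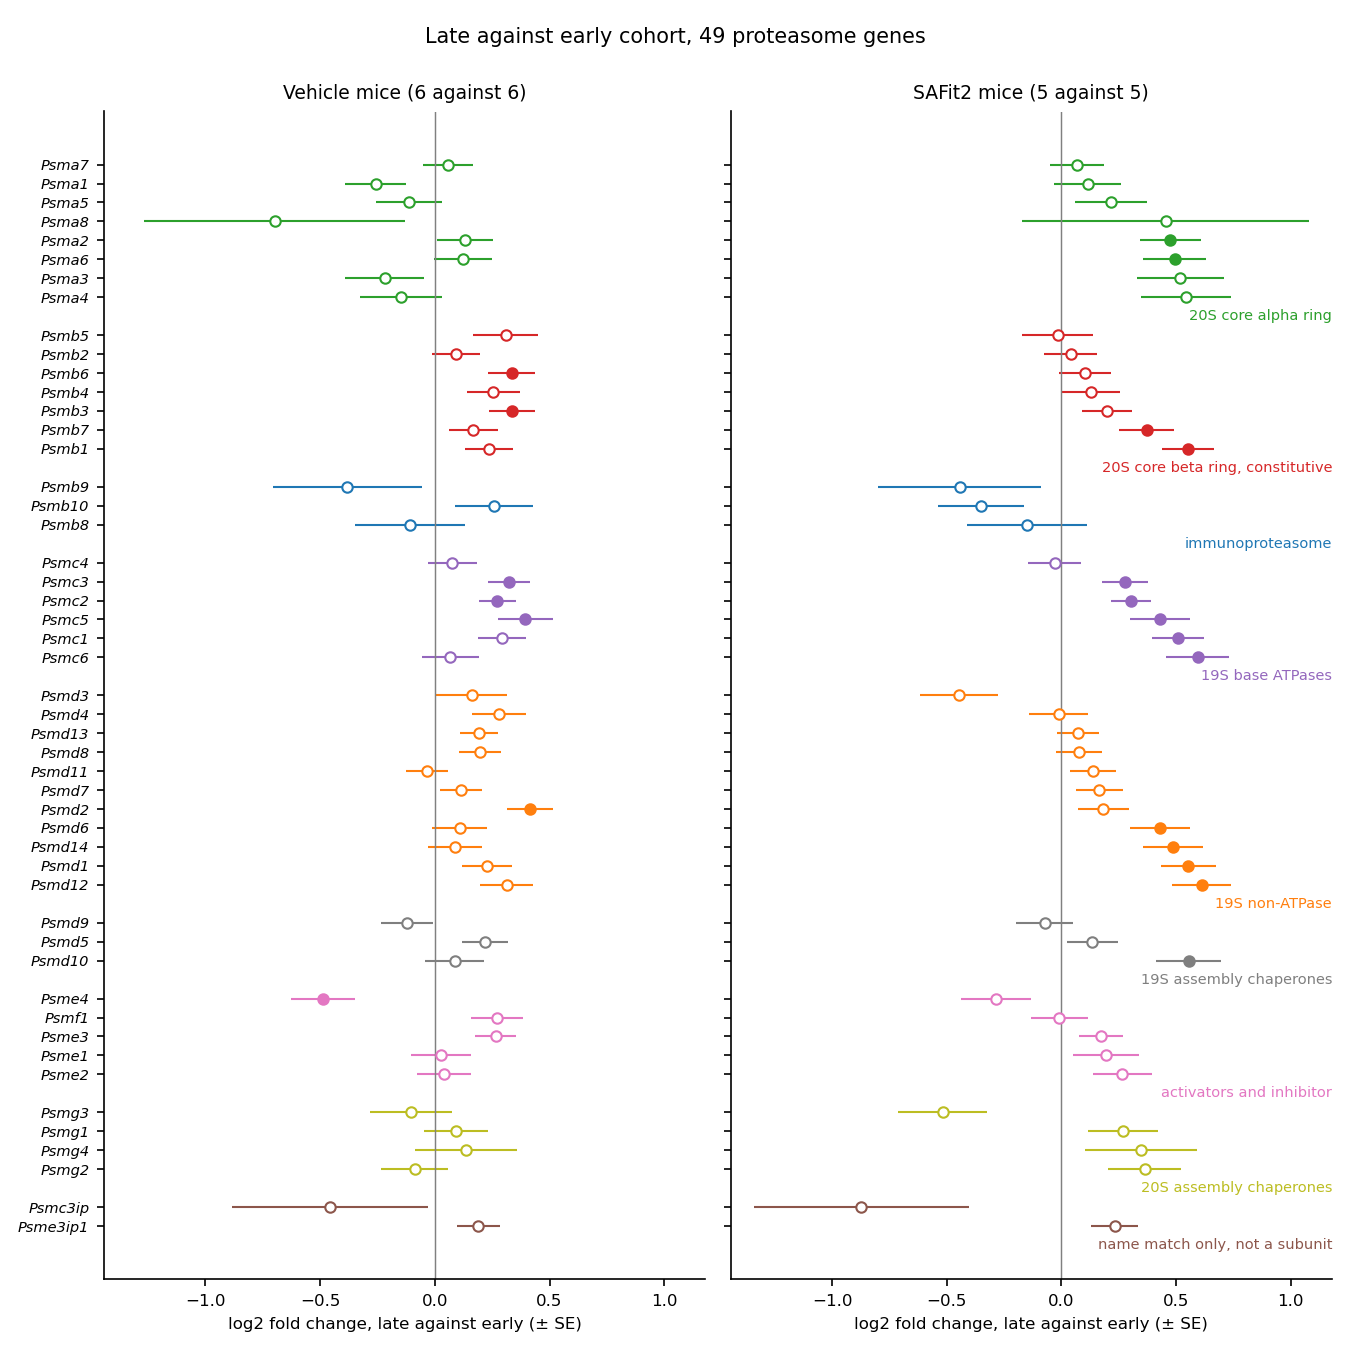
Log2 fold change of each of the 49 genes (points, with SE bars) for late against early mice, in vehicle mice on the left and SAFit2 mice on the right, grouped by class, with filled points for genes that passed the test. The ATPases lie at or above 0 in both panels except Psmc4 in SAFit2 mice, and more points are filled on the right (14) than on the left (7).

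Proteasome genes also varied together from mouse to mouse within groups. The mean pairwise correlation of deviations from the group mean over the 22 mice was 0.19 among the 49 genes and 0.0035 among all genes tested, as a description, since all pairs share libraries, depth and scaling. It was highest among the 8 alpha subunits (0.52), followed by the constitutive beta subunits (0.33) and the ATPases (0.32). It was -0.05 among activators and the inhibitor and -0.21 among the 3 base chaperones. With the GC and length trend removed it was 0.10 among the 49 genes. The pair of Psma6 and Psma2, alpha subunits, had the highest value (0.93).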

How the data were processed

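Per the methods, the authors trimmed reads, aligned them to mm10, counted them per gene with featureCounts and scaled libraries by trimmed mean of M-values. The submitters' processing notes name Trimmomatic, HISAT2 and edgeR, with no role or version. The deposited values are log2 CPM of the authors, from 22 libraries of the 4 groups given by the treatment and batch labels. Titles of 5 early samples name SAFit1 where the treatment label gives SAFit2, which was used. Reads worked back from the values were whole in 100.0% of cases (tolerance 0.02 reads). Depth limits genes with few reads, and the number of mice limits every mean.

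Genes with at least -1 log2 CPM in 5 libraries were kept (16765) and fitted with limma 3.58.1 (R 4.3.3), with 1 mean per group and a variance trend. p-values were adjusted over all genes tested by Benjamini-Hochberg, and genes passed at an adjusted p under 0.05 with at least a 1.2-fold difference, or an unadjusted p under 0.05 for the mean effect, as in the methods. Exact permutation tests were two-sided over all splits of the 11 mice. The mouse was the unit of replication, and per the methods treatments were spread over cages by block randomisation. GC content and length were those of the longest transcript in GENCODE M21, and the correction used loess with a span of 0.5. Values in every mouse were given for the cutting subunits and the genes called in late mice, and the highest and lowest late value in each class. Genes of the timing comparison were named after their values were seen. The members and lists were chosen with earlier results of these data known. Tables were made in Python 3.11.15. The fit was tested on simulated data. Results for some listed genes and 1 searched motif are not reported here.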

Additional observations from a re-analysis of the deposited data

Results flagged for a closer look

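Of 88 sets of values (22 named genes in 4 groups), 8 held 1 mouse far from the rest of its group by Dixon's criterion, where chance gives about 1 in 20 (4.4). Late SAFit2 replicate 5, the library with the highest share of Bc1, was high for Psmb8 (2.93 log2 CPM, others 1.69 to 2.02) and low for Psmc3ip (-2.15, others 0.86 to 1.22). Late Vehicle replicate 6 was low for Psmb10 (4.46, others 4.95 to 5.21), and without it the late difference of Psmb10 was -0.68. Early SAFit2 replicate 1 was high for Psmd14 (6.97, others 6.32 to 6.46) and for Psmd10 (5.06, others 4.68 to 4.79). Late SAFit2 replicate 3 was low for Psmd10 (5.24, others 5.37 to 5.40). Early Vehicle replicate 5 was low for Psme3ip1 (5.19, others 5.36 to 5.44), and Early Vehicle replicate 4 was high for Psmc4 (6.95, others 6.57 to 6.68).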

How the results depend on the processing

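The count of proteasome genes called in late mice was the result that changed most. It was 3 with limma voom on recovered reads, which called 5.23% of all genes, and 0 without a variance trend, with only the 11 mice of the comparison, with the GC and length trend removed, and with that trend removed and the replicate number as a block. It was 2 at a fold threshold of 1.5 and 22 with library quality weights, where 38.1% of all genes were called. Leaving out 1 library gave 0 to 13 late genes, 0 early genes, 3 to 10 for the mean of both effects, 0 to 5 for the early minus the late effect (5 without Late Vehicle replicate 6), 1 to 8 for late against early vehicle mice and 9 to 18 for late against early SAFit2 mice. The late median of members ranged from -0.0363 to 0.0585 over these, the early from -0.0416 to 0.0397 and the mean of both from -0.0046 to 0.0577, and with library sizes without Bc1 and mitochondrial genes the late median was -0.106. For the mean of both effects the count was 5 without a variance trend and 22 with quality weights, and for the early minus the late effect 12 with quality weights. The cause was not tested. Counts in this section without a share of all genes beside them have no background to be read against.

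In late against early vehicle mice the count was 16 with quality weights, 1 under quantile normalization, 1 with library sizes without Bc1 and mitochondrial genes, 12 with the GC and length trend removed with or without the block, and 0 at a fold of 1.5. In SAFit2 mice it was 22 after median centring, 8 under quantile normalization, 9 with the GC and length trend removed with or without the block, and 2 at a fold of 1.5. All alternatives of these 2 comparisons, and a fit restricted to genes that have a GC value, were chosen after seeing the data. The late value of Psmc6 turned to -0.0317 with the GC trend removed and to -0.0347 with the block added. Mice with the same replicate number did not deviate together (correlations from -0.236 to 0.317, 2 of 10 over 0.1), so the numbers were not taken as a pairing, and with the replicate block 7 late genes, 0 early genes and 10 for the mean of both effects were called. Early calls were 0 under all alternatives run.

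Psmb9, Psma8 and Psmc3ip rest on few reads. Each group holds 5 or 6 mice, and a count of 0 does not show that no gene changed.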

Other observations

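Marker genes of other cells in the late mice are given as values. The 5 ependymal markers, genes of the ciliated cells that line the central canal, summed to 17.4 to 42.1 CPM in Late SAFit2 and 30.4 to 61.2 CPM in Late Vehicle mice. All 5 were below 0 (median -0.77), and 2 passed as lower, where the share among all genes tested was 6.72%. The cilia regulator Foxj1 was at -0.77 ± 0.19 (SE, limma adjusted p = 0.0324), and at -0.16 with the GC and length trend removed. The other, Rarres2, was at -0.86 ± 0.28 (SE, limma adjusted p = 0.046), and at -0.81 with that trend removed. The 5 skeletal muscle markers summed to at most 4.24 CPM (median 3.55) in Late Vehicle mice. In Late SAFit2 mice the sum was 2.30 to 196 CPM (median 5.62). Of these markers, 1 passed as higher, where the share among all genes tested was 5.33%. The 5 endothelial markers summed to 156 to 206 CPM in Late SAFit2 and 170 to 231 CPM in Late Vehicle mice. Their median log2 fold change was -0.14, with 3 below 0 and 2 above 0. Of the 5, 1 passed as lower, where the share among all genes tested was 6.72%.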
